A study of Mus musculus with 44 samples.

Results

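Chaperones and their partners were examined across the brain of mice given ACTH or furosemide, a pair of treatments that the study's title ties to sodium craving. Members were chosen by name: base names that begin with HSP, DNAJ, PDIA, BAG or FKBP and a number, the cytosolic chaperonin subunits CCT2 to CCT8 and TCP1, the cyclophilins PPIA to PPIH, CALR, CANX and the heat shock factors, with FKBP5 left out. The rule found 90 of the table's 9554 features, with 82 base names. Of the 90 features, 88 matched a mouse gene symbol, and the other two (FKBP9Lgs and HSP90AA2gs) are given by their feature names only. A feature's name carries the ending gs, or g-s with a running number if its gene is measured by more than 1 feature. By role the members were 28 features of J proteins, 11 of the HSP70 family, 5 of the HSP90 family, 5 BAG proteins, 6 subunits of the cytosolic chaperonin, 7 of lectins and disulfide isomerases of the endoplasmic reticulum, 11 FKBPs, 6 cyclophilins, 5 small heat shock proteins, 3 heat shock factors and 3 other names that begin with HSP. HSPG2gs in the last set is perlecan, a matrix proteoglycan and not a chaperone. No feature that the rule found bears the name of heat-inducible HSPA1A or HSPA1B, constitutive HSPA8, HSP90AA1, HSPD1, HSPE1, DNAJA1, TCP1, CCT6 or PPIA. These genes were therefore not analysed here.

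RNA from adult male C57/Bl6 mice was labelled with Cy5 and hybridised on 44 arrays against a commercial universal mouse reference RNA in Cy3, with the same dye orientation on every array. The mice had been given ACTH and then been gratified, given ACTH alone, given furosemide and then been gratified, given furosemide alone, or left untreated as controls. In that order the hypothalamus had 6, 5, 4, 4 and 4 arrays, and the brain without its hypothalamus (called brain below) had 5, 4, 4, 4 and 4. Doses, times and what gratification consisted of are not in the labels, and no mouse carries a transgene or a deletion there. A value is the log2 ratio of tissue RNA over reference RNA. Differences are between group means of these ratios, with the standard error of the fit, and a feature is said to have risen or fallen where its Benjamini-Hochberg adjusted p over all 9554 features was below 0.05. These are tissue extracts, so fewer cells of a type and less RNA per cell cannot be told apart.

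Chaperones bind proteins that are not yet folded or have lost their fold. HSP70 proteins do so in cycles that J proteins start and that nucleotide exchange factors, such as BAG proteins and the HSP110-type relatives of HSP70, end. HSP90 then holds a narrower set of clients, steroid hormone receptors among them, with FKBP co-chaperones at its side, and the barrel-shaped cytosolic chaperonin folds actin and tubulin. In the endoplasmic reticulum BiP (Hspa5), GRP94 (Hsp90b1), the lectins calreticulin and calnexin, and disulfide isomerases handle secreted and membrane proteins.

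A pair of regulatory elements is known through which stress induces some of these genes, and most member genes with a promoter window held neither. Some promoters with a match are shown because the members' responses are read by compartment below. The endoplasmic reticulum stress element was searched as CCAAT, any 9 bases and CCACG. The heat shock element was searched as the core GAANNTTC or TTCNNGAA, and in a longer form that holds the core and repeats its first triplet after another NN. Both strands of the 250 bases before each RefSeq transcription start were read (GRCm38.p6). Windows existed for 63 of the matched member genes. The reticulum element lay in 37 of 32851 windows of all genes (0.113%), and in 4 of 81 member windows, those of Hspa5, Hsp90b1, Calr and Canx. The heat shock core was in 12.8% of all windows and in 18.5% of member windows (15 of 81, of 13 genes). The longer form was in 0.466% of all windows and in 2 of 81 member windows, both of Dnajb6. A match of letters is not a bound site. Stretches around the matches follow, 5′ to 3′ on the gene's strand, with the match in capitals. The first match begins 65 bases before the start for Hspa5, 212 for Hsp90b1, 162 for Calr, 145 for Canx, 46 for Dnajb6, 42 for Cct2 and 34 for Cct5.
Hspa5 (chr2:34771985-34772083, plus strand): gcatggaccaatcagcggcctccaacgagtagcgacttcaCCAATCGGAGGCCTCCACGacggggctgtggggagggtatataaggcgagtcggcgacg
Hsp90b1 (chr10:86705493-86705694, minus strand): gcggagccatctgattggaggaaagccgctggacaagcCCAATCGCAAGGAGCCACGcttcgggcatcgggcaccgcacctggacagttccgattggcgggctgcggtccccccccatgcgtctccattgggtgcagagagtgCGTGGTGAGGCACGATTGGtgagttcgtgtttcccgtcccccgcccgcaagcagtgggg
Calr (chr8:84847035-84847133, minus strand): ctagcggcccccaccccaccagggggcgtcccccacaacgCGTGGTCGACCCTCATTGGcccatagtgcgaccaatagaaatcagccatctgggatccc
Canx (chr11:50325760-50325858, minus strand): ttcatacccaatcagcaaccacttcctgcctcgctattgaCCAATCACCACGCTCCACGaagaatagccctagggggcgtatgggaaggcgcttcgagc
Dnajb6 (chr5:29735812-29735897, plus strand): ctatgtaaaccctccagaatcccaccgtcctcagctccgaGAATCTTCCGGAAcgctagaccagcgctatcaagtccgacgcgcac
Cct2 (chr10:117063376-117063457, minus strand): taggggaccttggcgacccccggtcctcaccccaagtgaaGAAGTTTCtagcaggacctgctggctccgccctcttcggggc
Cct5 (chr15:31601847-31601920, minus strand): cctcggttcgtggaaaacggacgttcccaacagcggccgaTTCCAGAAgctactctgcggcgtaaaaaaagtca

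The tissue labels were checked with marker genes: all 9 hypothalamic markers were higher in hypothalamus than in brain among controls, with a median difference of 1.18, and the neuron list had an array median between 1.11 and 2.22 on every array. The separation was weaker in gratified ACTH mice. Array medians of the hypothalamic list ran from 0.39 to 1.81 in their hypothalami, against 1.53 to 1.86 in control hypothalami and 0.33 to 0.49 in control brains. Those of the cortex and hippocampus list ran from 0.10 to 1.36 there, against 0.46 to 0.77 in control hypothalami. Sample descriptions close with numbers of 3 kinds, and 1 kind occurs on the 20 arrays of ACTH mice, gratified or not, and nowhere else. ACTH groups and number series therefore cannot be told apart against control or furosemide. Values tied exactly with another feature made up 20.3 to 33.5% of each array of that kind, against 2.75 to 16.1% of the others, and among the 90 members 5.56 to 17.8% against 0 to 8.89%. Where such ties exceed a share of 0.5 of either group's arrays, the member's size is left out. Hypothalamus ACTH gratified replicate 4 stood apart: its mean correlation with its own group was 0.77, against 0.891 to 0.975 for the other 43 arrays. On that array 48 of the 90 members (53.3%) lay above all 5 other arrays of the group, as did 33.2% of all features. Without it 7 of the 9 hypothalamic markers were higher in hypothalamus than in brain among gratified ACTH mice, with a median difference of 0.70. Counts of members called in hypothalamus are given with and without it, and where it belonged to neither group compared it was left out of the shared spread, a setting chosen after seeing the data.

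Across the 44 arrays the mean ratio was above 0 for 31 members and below 0 for 59, from -1.54 for perlecan to 1.69 for the auxilin feature DNAJC6gs. The members' median was -0.40, against -0.19 over all features, and the mean was below 0 for 65.6% of the members and 60.1% of all features. The median of the 90 members on an array was -0.39 ± 0.17 in hypothalami of ACTH gratified mice (SD, n = 6) and -0.49 ± 0.04 in those of ACTH mice (n = 5). It was -0.32 ± 0.04 after furosemide with gratification, -0.27 ± 0.04 after furosemide and -0.35 ± 0.07 in controls (n = 4 each). In brain it was -0.53 ± 0.08 in ACTH gratified mice (n = 5), -0.53 ± 0.07 in ACTH mice, -0.39 ± 0.05 and -0.37 ± 0.04 in the furosemide gratified and furosemide groups, and -0.37 ± 0.08 in controls (n = 4 each). The plot of array medians shows replicate 4 of the hypothalamus ACTH gratified group at -0.07, above the -0.54 to -0.38 of the other 5 arrays of its group.

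**Figure D1:**
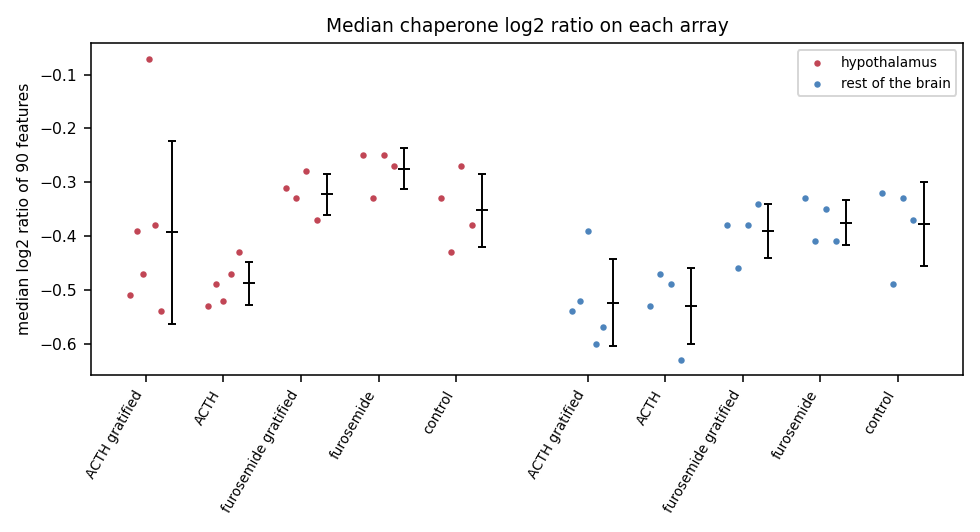
Median log2 ratio (tissue over reference RNA) of the 90 chaperone features on each of the 44 arrays, by tissue and group; points are arrays, and the mark with its bar is the group's mean and SD. All 5 hypothalamus ACTH arrays lie between -0.53 and -0.43, and 1 hypothalamus ACTH gratified array lies at -0.07.

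In brains of ACTH mice 24 of the 90 members fell against controls and 4 rose, where 20.7% of all features fell and 9.29% rose. The share of members that fell was 26.7%, and among features with a size it was 30% of the members and 25.4% of all features, so the share lay near that of the whole table. The median difference was -0.13 over the members and -0.04 over all features, and with quantile normalization it was -0.03 and 0.00. By role 3 of 5 HSP90 features fell, 2 of 11 of the HSP70 family, 1 of 5 BAG features, 7 of 28 J proteins, 3 of 6 chaperonin subunits, 2 of 7 reticulum lectins and isomerases, 4 of 11 FKBPs and 2 of 6 cyclophilins. The role medians were lowest for the HSP90 family (-0.39), the FKBPs (-0.24) and the chaperonin (-0.18). No small heat shock protein or heat shock factor fell.

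HSP90 beta (Hsp90ab1), the constitutive cytosolic HSP90, has 3 features. HSP90AB1g-s1 read -0.85, -0.98, -0.96 and -0.74 in brains of ACTH mice, against -0.41, -0.42, -0.45 and -0.45 in control brains. HSP90AB1g-s2 read -1.0, -0.98, -1.14 and -1.38 in ACTH brains, against -0.72, -0.79, -0.74 and -0.71 in control brains. For both features every ACTH brain lay below every control brain, and the differences were -0.45 ± 0.08 (adjusted p = 0.000778) and -0.39 ± 0.09 (adjusted p = 0.00269). HSP90AB1g-s3 read -0.89, -0.37, 0.43 and -0.98 in ACTH brains, against -0.23, -0.58, -0.52 and -0.51 in controls, so its groups overlapped (0.01 ± 0.27, adjusted p = 0.98). Over the 44 arrays the 3 features correlated pairwise at 0.28 to 0.51. HSP90AA2gs also fell (-0.51 ± 0.12, adjusted p = 0.00334), and GRP94 (Hsp90b1), the HSP90 of the endoplasmic reticulum, had a difference of -0.08 ± 0.07 (adjusted p = 0.414).

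In the HSP70 family, Hspa14 and Hspa4 fell in brains of ACTH mice. Hspa14, the HSP70 partner at the ribosome, read -1.25, -1.25, -1.21 and -1.34 in ACTH brains, against -0.84, -0.98, -0.80 and -0.72 in control brains. The groups did not overlap, and the difference was -0.43 ± 0.08 (1.34-fold lower, adjusted p = 0.000778). Dnajc2, the J protein that pairs with it at the ribosome, read -1.04, -1.09, -1.18 and -1.21 in ACTH brains, against -0.85, -0.85, -0.77 and -0.66 in controls (-0.35 ± 0.09, adjusted p = 0.00535). Hspa4, an HSP110-type exchange factor, differed by -0.25 ± 0.07 (adjusted p = 0.0169), and its call was lost without brain control replicate 4 (adjusted p = 0.0527). BiP (Hspa5) read -0.77, -0.90, -1.09 and -1.56 in ACTH brains, against -1.03, -1.28, -0.75 and -0.97 in control brains. Its groups overlapped, with a difference of -0.07 ± 0.15 (adjusted p = 0.75).

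Bag1, an exchange factor that releases clients from HSP70, gave the smallest adjusted p of the members in this comparison. BAG1gs read -0.58, -0.60, -0.62 and -0.90 in ACTH brains, against -0.18, -0.17, -0.12 and -0.06 in control brains. The 4 ACTH values lay below all 4 control values, 1.46-fold lower on average (-0.54 ± 0.08, adjusted p = 0.000186). Bag3, a heat-inducible relative that routes clients to autophagy, differed by -0.17 ± 0.11 (adjusted p = 0.262).

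Among the J proteins Dnajc30, Dnajb6, Dnajb4, Dnajb11, Dnajc2, Dnajc6 and Dnajb1 fell in brains of ACTH mice. Dnajc30, a mitochondrial J protein, read 0.15, 0.06, 0.23 and -0.05 in ACTH brains, against 0.45, 0.66, 0.66 and 0.65 in control brains (-0.50 ± 0.10, adjusted p = 0.00103). Dnajb6, known as a suppressor of polyglutamine aggregation and the member with the longer heat shock element above, read 0.07, 0.09, -0.08 and -0.24 at DNAJB6g-s1 in ACTH brains, against 0.39, 0.33, 0.58 and 0.56 in control brains. Neither gene's groups overlapped, and the DNAJB6g-s1 difference was -0.50 ± 0.12 (adjusted p = 0.00554). Its other feature, DNAJB6g-s2, differed by -0.06 ± 0.10 (adjusted p = 0.671). The features of Dnajb4 diverged: DNAJB4g-s1 fell (-0.45 ± 0.11, adjusted p = 0.00604) and DNAJB4g-s2 gave 0.22 ± 0.12 (adjusted p = 0.167), and over the 44 arrays they correlated at -0.41. Dnajb11 (ERdj3), a cofactor of BiP, read -0.87, -0.99, -1.15 and -1.20 in ACTH brains, against -0.62, -0.63, -0.66 and -0.65 in controls. That gap of -0.41 ± 0.09 (adjusted p = 0.00172) was wider than the spread within either group. Dnajc6 (auxilin), which uncoats clathrin vesicles at the synapse, fell by 0.31 with a standard error of 0.10 (adjusted p = 0.0214). Dnajb1, a heat-inducible J protein, fell by 0.30 with the same error (adjusted p = 0.024). Both were lost in part of the fits that left out 1 array: Dnajc6 passed in 4 of 8 and Dnajb1 in 5 of 8.

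Of the cytosolic chaperonin, Cct2, Cct3 and Cct7 fell in ACTH brains. CCT2gs read -1.37, -1.44, -1.42 and -1.59 in brains of ACTH mice, against -1.10, -1.30, -1.04 and -0.96 in control brains (-0.35 ± 0.08, adjusted p = 0.00396). CCT3gs read -1.08, -1.15, -0.94 and -1.39, against -0.78, -0.79, -0.73 and -0.71 in controls (-0.39 ± 0.09, adjusted p = 0.00412). Both subunits were lower on all 4 ACTH arrays than on any control array. Cct7 differed by -0.24 ± 0.07 (adjusted p = 0.0177), and without ACTH replicate 4 its adjusted p was 0.0745. Cct4, Cct5 and Cct8 had differences of -0.12 ± 0.10, 0.08 ± 0.08 and -0.09 ± 0.10 and did not pass. Cct2 and Cct5 are among the 13 member genes with the heat shock core shown above, which 12.8% of all windows hold.

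In the endoplasmic reticulum the disulfide isomerase Pdia4 (ERp72) fell at both of its features in brains of ACTH mice. PDIA4g-s1 read -1.57, -1.58, -1.21 and -1.29 in ACTH brains, against -1.08, -1.07, -0.28 and -1.08 in control brains (-0.54 ± 0.14, adjusted p = 0.00655), and 1 control array lay far above the other 3. PDIA4g-s2 differed by -0.29 ± 0.10 (adjusted p = 0.0427). Calreticulin (Calr), a calcium-binding lectin, read -0.91, -0.78, -0.64 and -1.24 in ACTH brains, against -0.74, -1.08, -0.92 and -0.99 in control brains. These ranges overlapped throughout (0.04 ± 0.10, adjusted p = 0.803). Of the 5 features of the 4 genes that carry the reticulum stress element (Hspa5, Hsp90b1, Calr and Canx), 0 passed in ACTH brains, where 30% of all features were called in either direction, too few features to set against that share.

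The peptidyl-prolyl isomerases moved in both families. Fkbp1b, which binds ryanodine receptors, read 0.77, 0.47, 0.54 and 0.64 in ACTH brains, against 0.90, 1.40, 1.23 and 1.04 in control brains (-0.54 ± 0.11, adjusted p = 0.00145). Fkbp8, an anchored protein of the outer mitochondrial membrane, differed by -0.43 ± 0.11 (adjusted p = 0.00559), and Fkbp4, a co-chaperone of HSP90 on steroid receptors, by -0.36 ± 0.12 (adjusted p = 0.0271). Fkbp4 passed in 4 of 8 fits that left out 1 array. FKBP9Lgs fell too (-0.36 ± 0.08, adjusted p = 0.0023). Cyclophilin D (Ppif), which gates the mitochondrial permeability pore, read -0.66, -0.62, -0.62 and -0.67 in ACTH brains, against -0.32, -0.41, -0.21 and -0.28 in control brains. Its ACTH values were tightly grouped and all lower (-0.34 ± 0.08, adjusted p = 0.00301). Ppib, a cyclophilin of the endoplasmic reticulum, differed by -0.30 ± 0.08 (adjusted p = 0.0101).

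Few members rose in brains of ACTH mice. Fkbp10, a collagen chaperone of the endoplasmic reticulum, read -0.90, -0.48, 0.20 and -0.42 in ACTH brains, against -1.18, -0.87, -0.67 and -1.11 in control brains. The ranges overlapped, the difference was 0.56 ± 0.20 (adjusted p = 0.0364), and the call was lost in 4 of 8 fits that left out 1 array, with an adjusted p of 0.147 without ACTH replicate 3. The other 3 rises, of Hsf2, Hspb7 and Hspbap1, were at tied features and have no size. Hsf1, the master factor of the heat shock response, differed by -0.18 ± 0.07 (adjusted p = 0.0538), and the small heat shock protein Hspb1 by 0.01 ± 0.13.

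**Figure D2:**
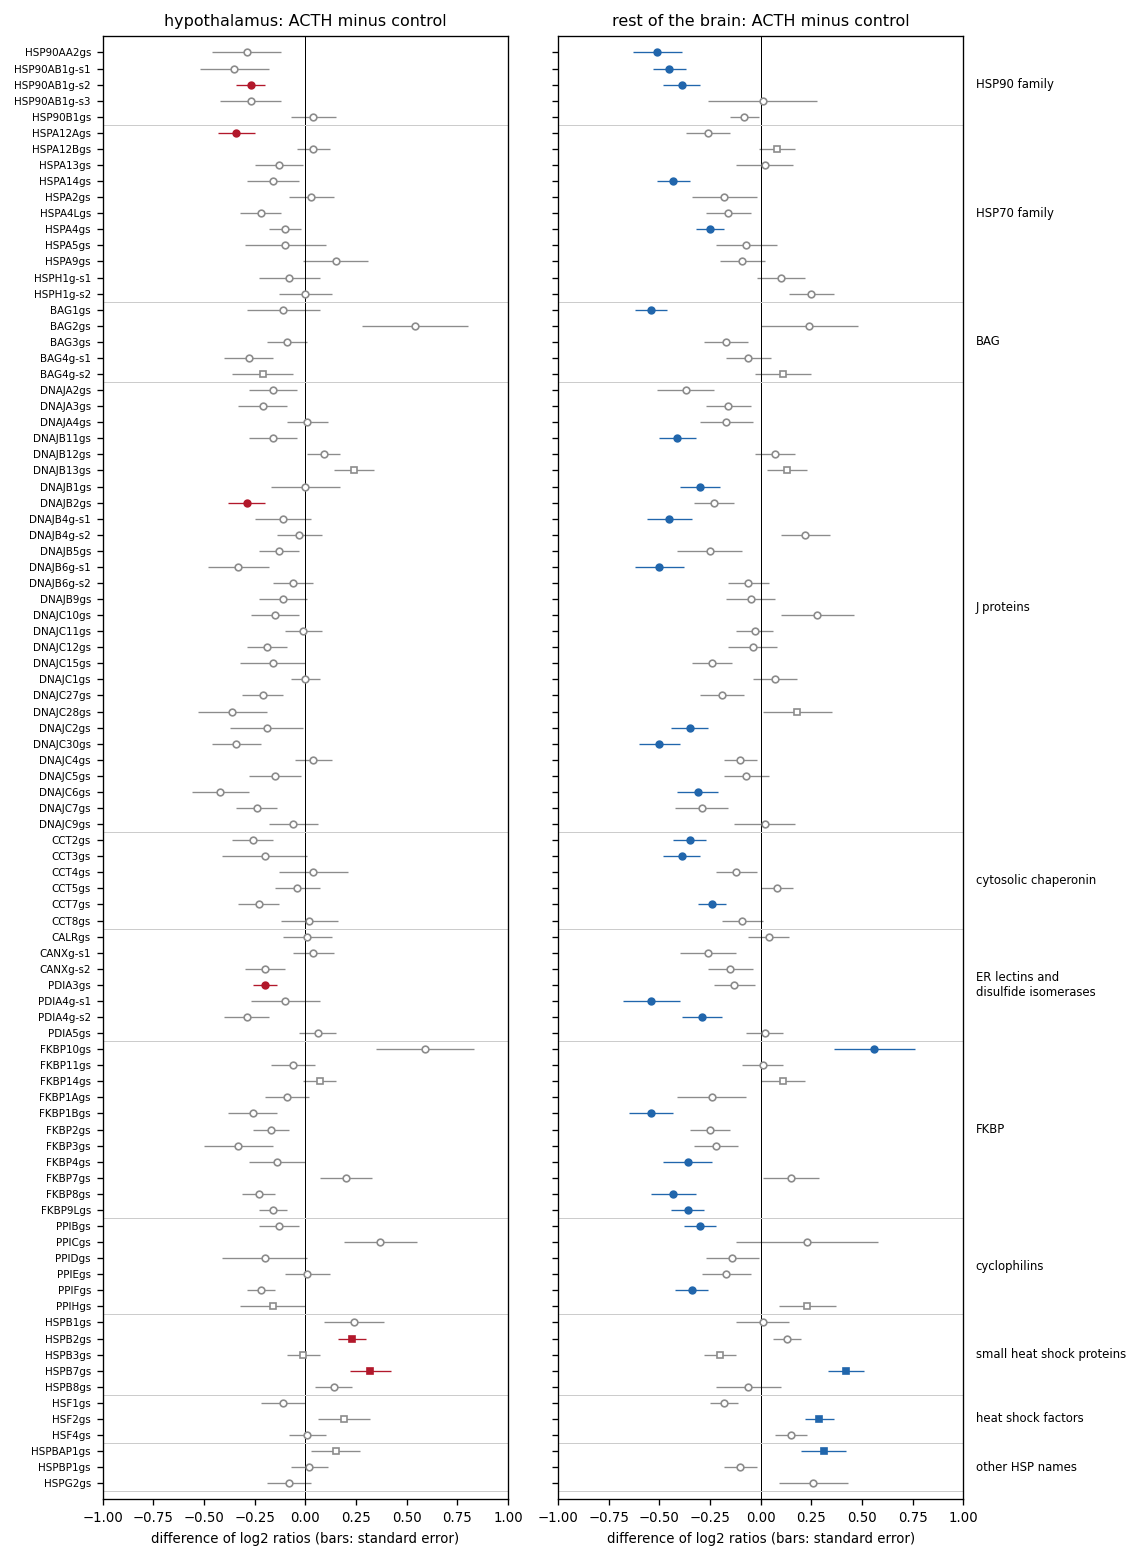
Difference of log2 ratios, ACTH minus control, for each of the 90 features, ordered by role, in hypothalamus (left) and in the rest of the brain (right); bars are standard errors, filled marks passed an adjusted p of 0.05 and squares are tied features whose size is not read. Filled marks in brain lie mainly left of 0, with BAG1gs at -0.54 and FKBP10gs at 0.56.

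In brains of gratified ACTH mice 26 members fell and 4 rose, where 21.2% of all features fell and 11.5% rose. The share of members that fell was 28.9%. The members' median difference was -0.14, against -0.04 over all features, and with quantile normalization it was -0.07, against 0.01. Of the HSP90 family 4 of 5 features fell, GRP94 now among them: HSP90B1gs read -1.30, -1.31, -1.25, -1.29 and -1.42 in brains of ACTH gratified mice, against -1.02, -1.09, -0.94 and -1.04 in control brains (-0.29 ± 0.07, adjusted p = 0.00417). Its groups did not overlap. HSP90B1gs was also lower in brains without ACTH, with means of -1.25 after furosemide and -1.31 after furosemide with gratification, against -1.02 in controls. The furosemide difference was -0.22 ± 0.07 without overlap (adjusted p = 0.259), and neither furosemide group passed. Dnaja2, a cytosolic J protein, had the largest fall of the members with a size. DNAJA2gs read -0.23, -0.22, -0.13, 0.06 and 0.01 in ACTH gratified brains, against 0.19, 0.49, 0.82 and 0.69 in control brains (-0.65 ± 0.14, 1.57-fold lower, adjusted p = 0.00149). Every gratified brain was below every control brain. Cct4 (-0.35 ± 0.10, adjusted p = 0.00919) and mitochondrial Dnajc15 (-0.35 ± 0.10, adjusted p = 0.0104) also fell, both with ranges that overlapped. CCT4gs had a median of -0.92 and a highest value of -0.40 in control brains. Its means were -1.17 in ACTH gratified, -1.07 in furosemide and -1.06 in furosemide gratified brains. Bag1 (-0.49 ± 0.08, adjusted p = 0.000152), Hspa14 (-0.47 ± 0.07, adjusted p = 0.00019) and HSP90AB1g-s1 (-0.49 ± 0.08, adjusted p = 0.000186) had the smallest adjusted p. Hsf1 fell by 0.19 with an error of 0.07 (adjusted p = 0.0336), and it passed in 3 of 9 fits that left out 1 array. Its mean was -0.82 in these brains, -0.81 in furosemide gratified brains, -0.76 in furosemide brains and -0.63 in controls. HSPH1g-s2, a feature of the HSP110 gene Hsph1, rose by 0.28 ± 0.11 (adjusted p = 0.0472) and passed in 2 of 9, while the gene's other feature, HSPH1g-s1, gave 0.08 ± 0.11 (adjusted p = 0.615). The other 3 rises, of Hspb2, Hsf2 and Hspb7, and the fall of Hspb3 were at tied features. Of the falls in brain, 19 features were among both the 24 of ACTH and the 26 of ACTH gratified mice. These comparisons share their control arrays, and the overlap over all features is not given here.

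Gratified and ungratified ACTH brains were compared directly, and 0 of the 90 members passed (0.0628% of all features did), with 6 members and 614 features at an unadjusted p under 0.05 in limma. Bag1 read -0.61, -0.65, -0.45, -0.61 and -0.81 in ACTH gratified brains, against -0.58, -0.60, -0.62 and -0.90 in ACTH brains, in overlapping ranges. In hypothalamus the same comparison gave 0 members (0.0105% of all features), with 6 members and 761 features at an unadjusted p under 0.05. A p that misses the threshold does not show that the groups were equal.

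In hypothalamus fewer members passed, and their number hung on the array that stood apart. Against controls ACTH gave 4 falls and 2 rises among the 90 members, where 6.03% of all features fell and 4.49% rose. With replicate 4 of the ACTH gratified group left out of the shared spread, 18 members fell and 3 rose (23.3% of members against 22% of all features). The median difference was -0.11 over members and -0.02 over all features in both fits. Of the members 62 had a difference below 0, as did 53.2% of all features.

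HSP90AB1g-s2 read -1.12, -1.04, -1.09, -1.08 and -1.07 in hypothalami of ACTH mice, against -0.72, -0.82, -0.88 and -0.84 in control hypothalami. No ACTH value reached the control range (-0.27 ± 0.07, adjusted p = 0.0191), although without control replicate 1 the adjusted p was 0.0747. This feature was the 1 member among both the 4 falls in hypothalamus and the 24 in brain, and without the array that stood apart 13 members were among both the 18 and the 24. Of all features 20.7% fell in ACTH brains, and their overlap between tissues is not given here, so no meaning is read from these overlaps for the members. Hspa12a, an atypical HSP70 abundant in brain, read 1.47, 1.12, 0.90, 1.41 and 1.23 in ACTH hypothalami, against 1.55, 1.54, 1.55 and 1.63 in control hypothalami. Its ACTH values spread widely below a narrow control range (-0.34 ± 0.09, adjusted p = 0.021), and the adjusted p was 0.0534 without ACTH replicate 2 and 0.0521 without replicate 3. Dnajb2 (HSJ1), a J protein of neurons, differed by -0.29 ± 0.09 (adjusted p = 0.047), and Pdia3 (ERp57), the isomerase that works with calreticulin and calnexin, by -0.20 ± 0.06 (adjusted p = 0.0437). Dnajb2 passed in 1 of 9 fits that left out 1 compared array and Pdia3 in 0 of 9. The rises, of Hspb2 and Hspb7, were at tied features.

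Members that passed in ACTH hypothalami only without the array that stood apart kept their differences and gained a smaller error. HSP90AB1g-s1 read -1.06, -0.95, -0.69, -1.01 and -0.81 in ACTH hypothalami, against -0.50, -0.52, -0.48 and -0.71 in controls. With only a narrow overlap the difference was -0.35, with an adjusted p of 0.00382 without the array and 0.176 with it. CCT2gs read -1.38, -1.33, -1.34, -1.35 and -1.30 in ACTH hypothalami, against -1.11, -1.03, -1.13 and -1.05 in controls (difference -0.26). Its ACTH values were all lower, and the adjusted p was 0.00487 without the array and 0.0924 with it. Likewise DNAJB6g-s1 (-0.33), Dnajc30 (-0.34) and Ppif (-0.22) had adjusted p of 0.00527, 0.00694 and 0.0169 without the array, against 0.166, 0.0761 and 0.0565 with it. Hspb1, the small heat shock protein Hsp27, read -0.90, -0.83, -0.86, -0.95 and -0.68 in ACTH hypothalami, against -1.08, -0.97, -1.17 and -1.12 in control hypothalami. All ACTH values lay above the control values, and the rise of 0.24 had an adjusted p of 0.0276 without the array and 0.291 with it. BiP, with -1.37, -1.09, -0.92, -1.16 and -1.13 in ACTH hypothalami and -1.28, -0.95, -0.67 and -1.24 in control hypothalami, overlapped in part (-0.10 ± 0.20, adjusted p = 0.774).

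**Figure D3:**
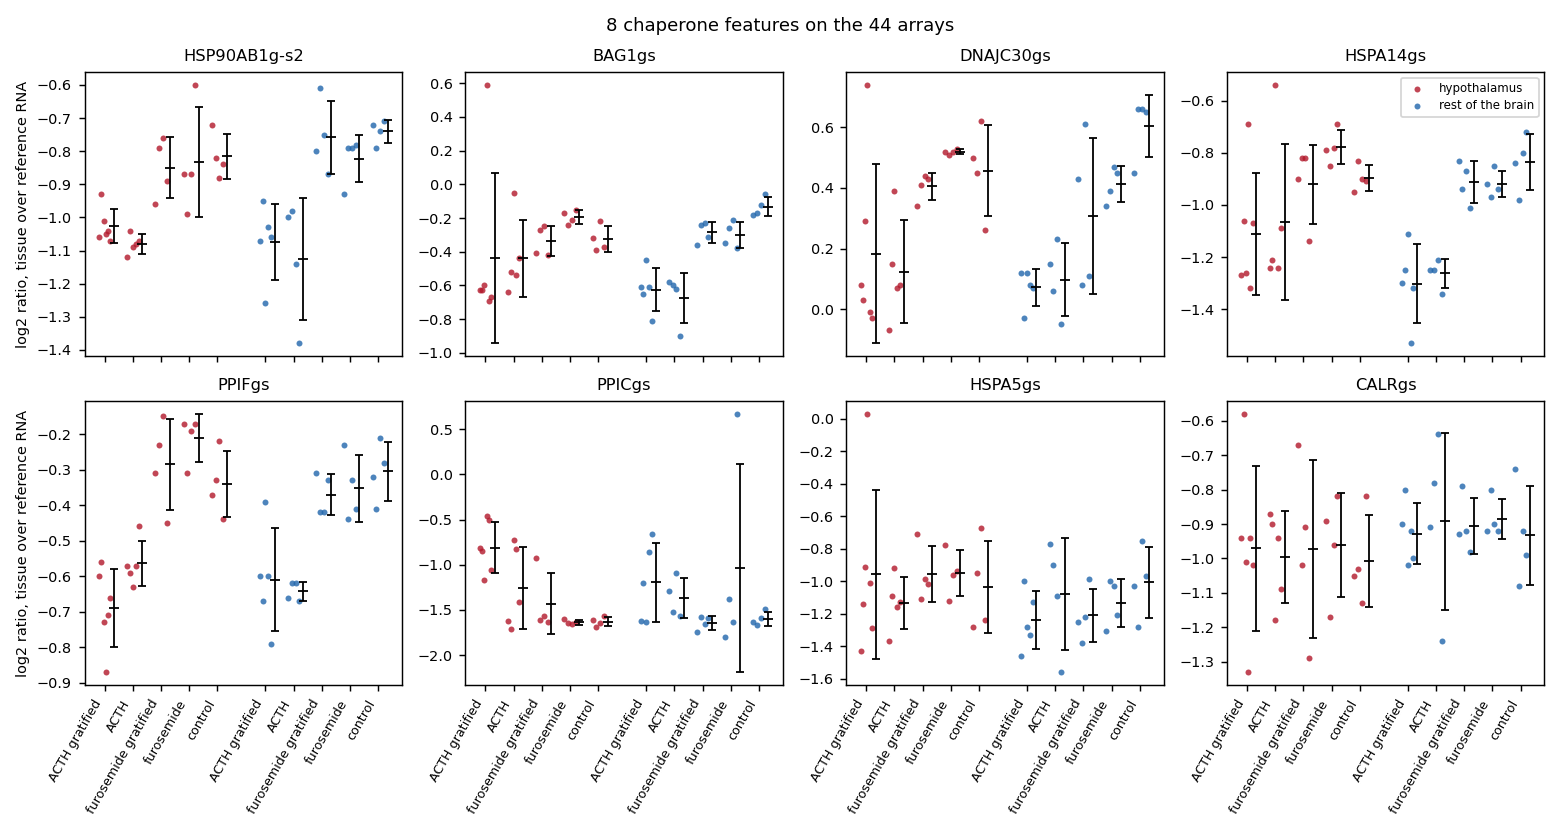
Log2 ratio (tissue over reference RNA) of 8 chaperone features on each of the 44 arrays, by tissue and group; points are arrays, and the mark with its bar is the group's mean and SD, with a separate scale in each panel. HSP90AB1g-s2 sits lower in all ACTH groups than in controls in both tissues, PPICgs is above its control range on all 6 hypothalamus ACTH gratified arrays, and HSPA5gs and CALRgs overlap between groups.

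Gratified ACTH mice had 5 falls and 1 rise among the members in hypothalamus, where 7.97% of all features fell and 4.67% rose. Without replicate 4 of that group 18 members fell and 3 rose (23.3% of members against 25.6% of all features). Ppic, a cyclophilin of the secretory pathway, rose: PPICgs had a lowest value of -1.17, a median of -0.83 and a highest value of -0.46 on the 6 ACTH gratified arrays, against -1.61, -1.69, -1.65 and -1.57 in control hypothalami. The groups were far apart, 1.77-fold higher on average (0.82 ± 0.18, adjusted p = 0.00353), and all 10 fits that left out 1 array kept the call, with 0.75 ± 0.18 (adjusted p = 0.00429) without replicate 4. On the 5 ACTH arrays that had not been gratified PPICgs read -1.62, -1.71, -0.73, -0.83 and -1.41, a split range that reached the control values (0.37 ± 0.18, adjusted p = 0.19). In brain the ACTH gratified arrays read -1.62, -1.20, -1.64, -0.86 and -0.66, also a split range. Groups without ACTH held high values too: PPICgs reached 0.67 in furosemide brains (median -1.51) and -0.93 in furosemide gratified hypothalami (median -1.59).

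Ppif fell in the gratified hypothalami, with -0.87, -0.69 and -0.56 as lowest, median and highest value, against -0.37, -0.33, -0.22 and -0.44 in control hypothalami. The groups did not overlap (-0.35 ± 0.07, adjusted p = 0.0027), and all 10 fits that left out 1 array kept the call. HSP90AB1g-s2 (-0.21 ± 0.07, adjusted p = 0.0425), Hspa12a (-0.29 ± 0.09, adjusted p = 0.0312), PDIA4g-s2 (-0.35 ± 0.11, adjusted p = 0.0374) and Fkbp8 (-0.26 ± 0.08, adjusted p = 0.0353) fell too, and each passed in 2 to 4 of 10 such fits. All 5 features that fell here were among the 26 that fell in gratified ACTH brains, and without replicate 4 so were 16 of 18. In those brains 21.2% of all features fell, and the overlap over all features is not given here, so no meaning is read from it for the members. Bag1 shows what the array that stood apart did to this group: it read 0.59 there and -0.69 to -0.60 on the other 5 arrays, against -0.32, -0.39, -0.22 and -0.37 in control hypothalami. The Bag1 difference was -0.11 with that array (adjusted p = 0.721) and -0.32 ± 0.08 without it (adjusted p = 0.00774). For Cct3 it was 0.00 in size with it (adjusted p = 0.997) and -0.26 ± 0.08 without it (adjusted p = 0.0185).

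Whether the ACTH difference differed between tissues was tested as an interaction over all 44 arrays. No member passed (0 of 90, and 0% of all features), with 2 members and 680 features at an unadjusted p under 0.05 in limma. The greater number of calls in brain is thus not shown to be a difference between the tissues.

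Furosemide, a loop diuretic, gave 0 calls among the members against controls in either tissue. In hypothalamus 0.0209% of all features passed after furosemide and 0% after furosemide with gratification, with 5 and 2 members at an unadjusted p under 0.05 in limma (582 and 282 of all features). In brain 0.0942% of all features passed after furosemide and 0% after furosemide with gratification, with 11 and 20 members at an unadjusted p under 0.05 (1174 and 1827 of all features). The smallest adjusted p of a member was 0.0696, in furosemide gratified brains. Median differences of the members were 0.05 and 0.02 in hypothalamus after furosemide and after furosemide with gratification, and -0.03 and -0.06 in brain. HSP90AB1g-s1 read -0.78, -0.92, -0.52 and -0.54 in furosemide gratified brains and -0.79, -0.61, -0.65 and -0.60 in furosemide brains, against -0.41, -0.42, -0.45 and -0.45 in control brains. Every furosemide array was below the control range, and neither difference passed the test over all features. Gratified against ungratified furosemide mice gave 0 calls too, with 0.0105% of all features in hypothalamus and 0% in brain, and with 3 and 4 members at an unadjusted p under 0.05 (316 and 344 of all features). Without the array that stood apart these hypothalamus comparisons, and that of gratified against ungratified ACTH mice, also gave 0 members.

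ACTH was also set against furosemide in place of untreated mice. In hypothalamus 16 members (17.8%) fell and 2 rose, both rises at tied features, where 13.4% of all features fell and 9.27% rose, and the members' median was -0.19 against -0.05 over all features. Without the array that stood apart 35 fell and 2 rose (41.1% of members against 36.7% of all features). DNAJA2gs read -0.09, -0.07, 0.12, -0.12 and 0.27 in hypothalami of ACTH mice, against 0.57, 0.69, 0.66 and 0.36 in those of furosemide mice. Dnajc7, a J protein with repeats that bind both HSP70 and HSP90, read -0.42, -0.27, -0.41, -0.35 and -0.36 in ACTH hypothalami, against 0.23, 0.07, 0.24 and -0.07 in furosemide hypothalami. In both genes the groups did not overlap (-0.55 ± 0.12, adjusted p = 0.00384, for Dnaja2 and -0.48 ± 0.10, adjusted p = 0.00238, for Dnajc7). DNAJB4g-s1 (-0.54 ± 0.14), Hspa12a (-0.43 ± 0.09), Dnajc30 (-0.40 ± 0.12), PDIA4g-s2 (-0.36 ± 0.11), Ppif (-0.35 ± 0.07), Ppib (-0.34 ± 0.10), BAG4g-s1 (-0.34 ± 0.12), Cct2 (-0.30 ± 0.10), Fkbp8 (-0.30 ± 0.08), Dnajb5 (-0.27 ± 0.10), HSP90AB1g-s2 (-0.25 ± 0.07), Fkbp2 (-0.24 ± 0.09), FKBP9Lgs (-0.24 ± 0.07) and Pdia3 (-0.23 ± 0.06) fell as well. Of these 16 falls, 6 passed in every fit that left out 1 compared array: Dnaja2, DNAJB4g-s1, Dnajc7, Hspa12a, Ppif and Fkbp8.

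In brain, ACTH against furosemide gave 16 falls and 3 rises, 2 of these at tied features, where 10.9% of all features fell and 5.2% rose. Bag1 read -0.58, -0.60, -0.62 and -0.90 in brains of ACTH mice, against -0.35, -0.26, -0.21 and -0.38 in those of furosemide mice (-0.37 ± 0.08, adjusted p = 0.00621). Hspa14 read -1.25, -1.25, -1.21 and -1.34 in ACTH brains, against -0.92, -0.97, -0.85 and -0.94 in furosemide brains (-0.34 ± 0.08, adjusted p = 0.00868). Neither gene's groups overlapped. Together with Ppif (-0.29 ± 0.08, adjusted p = 0.0174), these 3 were the members with a size called in all 8 fits that left out 1 array. Falls of lesser stability were those of Hspa12a (-0.44 ± 0.11), Dnajc7 (-0.43 ± 0.13), Dnajb2 (-0.36 ± 0.10), Fkbp2 (-0.36 ± 0.10), Dnajc6 (-0.33 ± 0.10), Dnajc30 (-0.31 ± 0.10), Fkbp8 (-0.31 ± 0.11), HSP90AB1g-s2 (-0.30 ± 0.09), Cct2 (-0.29 ± 0.08), Ppib (-0.28 ± 0.08), Dnajb11 (-0.27 ± 0.09), FKBP9Lgs (-0.24 ± 0.08) and Cct7 (-0.23 ± 0.07). Fkbp10 rose (0.60 ± 0.20, adjusted p = 0.0418) and passed in 2 of 8 fits. Leaving out 1 array moved this count to between 4 and 18, with 4 without ACTH replicate 4. These comparisons use the same ACTH arrays as those against controls.

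**Figure D4:**
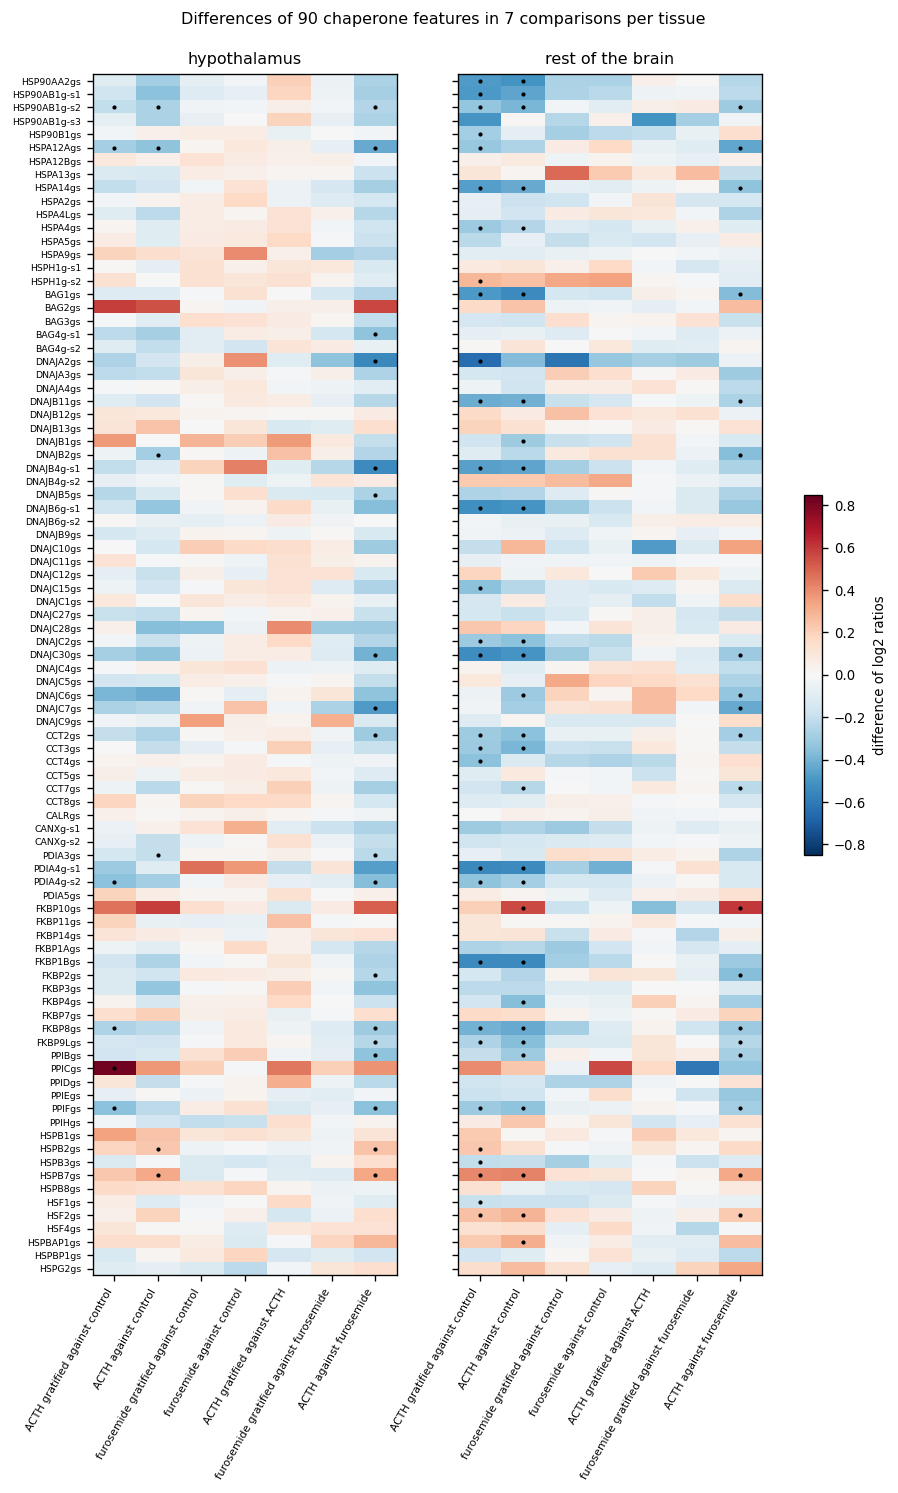
Differences of log2 ratios of the 90 features (down, ordered by role) in 7 comparisons (across) for hypothalamus (left) and the rest of the brain (right), first-named group minus second; red is higher and blue lower, and dots mark an adjusted p below 0.05. Dots lie in the columns of ACTH and ACTH gratified against control and of ACTH against furosemide, and in no column of furosemide against control or of gratification.

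In controls 1 member was higher in hypothalamus than in brain and 1 was lower (2.22% of members), where 1.07% of all features were higher and 1.75% lower. Without the array that stood apart 1 was higher and 2 were lower (3.33% of members against 4.07% of all features), Hspb3 being the added one (-0.27 ± 0.08, adjusted p = 0.0366). Dnajc12, a J protein that binds the hydroxylases of aromatic amino acids, read 0.92, 0.82, 0.99 and 0.92 in control hypothalami, against 0.52, 0.19, 0.56 and 0.63 in control brains (0.44 ± 0.11, adjusted p = 0.0204). Fkbp1b read 0.74, 0.75, 0.76 and 0.49 in control hypothalami, against 0.90, 1.40, 1.23 and 1.04 in control brains (-0.45 ± 0.12, adjusted p = 0.0238). Neither gene's tissues overlapped. Without brain control replicate 2 both adjusted p were 0.136, and for Fkbp1b it was 0.114 without hypothalamus control replicate 4 and 0.0874 without brain control replicate 3. For Dnajc12 it was 0.0676 and 0.0537 without hypothalamus control replicates 3 and 4. Control tissues lie in different number series, and with the series as a factor the adjusted p were 0.285 for Dnajc12 and 0.473 for Fkbp1b. Dnajc12 read 0.71, 0.87, 0.45, 0.83 and 0.73 in hypothalami of ACTH mice, against 0.64, 0.42, 0.50 and 0.17 in their brains, with overlapping ranges. Among ACTH mice 0 members passed between tissues (1.22% of all features did), and among ACTH gratified mice 0 did (0.555% of all features), with 8 and 12 members at an unadjusted p under 0.05 in limma (1081 and 1180 of all features). Both counts were 0 without the array that stood apart, as was that of the interaction.

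Other genes of protein folding and quality control were read as a list of 66 genes, 51 of them measured by 62 features. In brains of ACTH mice 23 of these features fell and 5 rose (37.1% and 8.06%, against the 20.7% and 9.29% of all features, median -0.15). In gratified ACTH brains 22 fell and 4 rose (35.5% and 6.45%, against 21.2% and 11.5% of all features, median -0.19). In hypothalamus 2 fell and 1 rose with ACTH (3.23% and 1.61%, against 6.03% and 4.49%), and 4 fell and 2 rose in gratified mice (6.45% and 3.23%, against 7.97% and 4.67%). Without the array that stood apart 11 fell and 2 rose with ACTH, and 13 fell and 4 rose in gratified mice. These 2 fits called 22% and 25.6% of all features in either direction. Tbce, a tubulin folding cofactor, fell by 0.60 in ACTH brains with an error of 0.09 (adjusted p = 0.000212) and by 0.44 in ACTH hypothalami with an error of 0.14 (adjusted p = 0.0409). Clpp, a mitochondrial protease, differed by -0.60 ± 0.10 in ACTH brains (adjusted p = 0.000379). Alpha-B crystallin (Cryab), a small heat shock protein by structure, differed at CRYABg-s2 by -0.61 ± 0.16 in ACTH brains (adjusted p = 0.00823) and -0.61 ± 0.14 in ACTH hypothalami (adjusted p = 0.00661). The gene's other feature, CRYABg-s1, passed in neither tissue. Clpb, a mitochondrial disaggregase, rose by 0.31 ± 0.07 in ACTH hypothalami (adjusted p = 0.0105) and 0.24 ± 0.09 in ACTH brains (adjusted p = 0.0413). Fkbp5, the co-chaperone that glucocorticoids are known to induce and that is not a member, differed by 0.03 ± 0.15 in ACTH hypothalami (adjusted p = 0.906) and -0.38 ± 0.15 in ACTH brains (adjusted p = 0.0621). In gratified ACTH brains it fell, by 0.46 with an error of 0.14 (adjusted p = 0.0169). Against the same controls Fkbp5 differed by -0.27 ± 0.15 in furosemide brains (adjusted p = 0.475) and -0.45 ± 0.15 in furosemide gratified brains (adjusted p = 0.127). Between ACTH and furosemide brains its difference was -0.10 ± 0.15 (adjusted p = 0.664).

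Markers of other cell types moved beside these results. Of 5 microglial markers, 5 fell in brains of ACTH mice and 3 in their hypothalami, where 20.7% and 6.03% of all features fell. The median of that list ran from -0.51 to -0.17 on ACTH brain arrays against 0.02 to 0.48 on control brain arrays, and from -0.30 to -0.04 on ACTH hypothalamus arrays against -0.09 to 0.32 on control hypothalamus arrays. Oligodendrocyte features fell in 2 of 8 cases in ACTH brains, with array medians of 1.72 to 1.92 against 1.81 to 2.20 in controls, and in 3 of 8 in ACTH hypothalami, with 1.74 to 2.15 against 2.14 to 2.33 in controls. Of 9 neuronal features 2 fell in ACTH brains and 0 in ACTH hypothalami, and of 6 astrocyte features 0 did in either tissue (1 in hypothalamus without the array that stood apart). Array medians of the neuron list ran from 1.62 to 2.20 in ACTH brains, against 1.90 to 2.13 in control brains. In ACTH hypothalami they ran from 1.11 to 2.12, against 1.91 to 2.06 in control hypothalami. Vascular features fell in 1 of 10 and 0 of 10 cases. The part of cell makeup in the chaperone differences was not tested.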

How the data were processed

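The values are log2 ratios of tissue RNA (Cy5) over reference RNA (Cy3) that the authors deposited in 1 table of 9554 features on 44 arrays, per the labels. The base of 2 follows the convention of limma, which the submitters' processing notes name without a version. For background correction, normalization, filters and the clones behind a feature, nothing is stated in the sources used here. The ratios ran from -2.65 to 3.17 with array medians of -0.24 to -0.05, and were used as deposited. Spot signals were not used here, so background and saturation of a feature are unknown.

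Group means were compared by limma's lmFit and eBayes with no minimum fold (limma 3.58.1, R 4.3.3). All arrays of a tissue entered 1 fit, and all 44 entered the tissue comparisons and the interaction. P-values were adjusted over all 9554 features by the Benjamini-Hochberg method with a threshold of 0.05. The fit was tested on simulated data. Labels speak of RNA from each animal but do not say which arrays share one, and how far the replicates are separate animals rests on them. The number of arrays limits the precision.

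Members and lists were chosen with earlier results of these data known. A set of central chaperones was always named, with up to 20 called members of largest difference in a comparison and up to 5 genes of the other folding list. Alternatives were quantile normalization, medians of 0, array weights, only the groups compared, a filter on tied features, 1 value for a gene, the number series or replicate block as a factor, and leaving out each array. The fit with the array that stood apart left out of the shared spread was chosen after seeing the data.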

Additional observations from a re-analysis of the deposited data

Results flagged for a closer look

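In the 10 groups of 4 to 6 arrays, 250 sets of values of 24 named chaperone features and of the array median were searched for a highest or lowest array that stood far from the others by Dixon's criterion at the 95% level. It picked out 33, and chance gives about 1 in 20 sets. Many of these values came from hypothalamus ACTH gratified replicate 4, on which the median of the 90 members was -0.07. On that array HSPA5gs (BiP) read 0.03, against -1.43 to -0.91 on the other arrays of its group, and DNAJB1gs read 0.98. The HSP90 features HSP90AB1g-s1, HSP90AB1g-s3 and HSP90B1gs read 0.24, 0.03 and -0.68 there. The chaperonin features CCT2gs, CCT3gs, CCT4gs, CCT5gs and CCT7gs read -0.80, 0.55, 0.07, -0.61 and -0.43. HSF2gs read -0.65 and HSPB1gs 0.06 on it.

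Elsewhere in hypothalamus, BAG3gs read -0.78 on ACTH gratified replicate 1 and CCT8gs -0.09 on replicate 2. ACTH replicate 1 had CCT3gs at -1.07, replicate 3 had CCT5gs at -1.37, and replicate 5 had CANXg-s2 at -0.43. Furosemide gratified replicate 1 had HSPA4gs at -1.26 and HSPH1g-s1 at 0.70, and furosemide replicate 3 had HSPH1g-s2 at -0.36. Control replicate 1 had HSPA4gs at -1.17, and control replicate 4 had CANXg-s2 at -0.63.

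In brain, CCT4gs read -1.03 on ACTH gratified replicate 1 and CCT5gs -1.48 on replicate 5. ACTH gratified replicate 3 had FKBP4gs at -0.07 and HSPB1gs at -0.36. ACTH replicate 4 had CANXg-s2 at -0.30 and CCT7gs at -1.40. Furosemide gratified replicate 2 had CANXg-s1 at -1.01. HSP90AB1g-s2 read -0.93 on furosemide replicate 1, and HSP90AB1g-s3 read 0.59 on furosemide replicate 2. HSPB1gs read -1.25 on control replicate 2.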

How the results depend on the processing

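Of 128 counts of called members under other settings, 19 moved by over 1.5 times, and of 166 fits that left out 1 array, 33 did. No named difference that was called changed its direction in any fit. The 95 such differences kept their call in 518 of 591 fits under other settings and in 613 of 817 that left out 1 array. ACTH against control in hypothalamus gave 6 calls, and 1 with quantile normalization, 26 with weighted arrays, 16 in a fit of the compared groups alone and 21 with the array that stood apart left out of the shared spread. ACTH gratified against control there gave 6, and 3 with quantile normalization, 26 with weights and 3 with only the groups compared. ACTH against furosemide there gave 18, and 47, 43 and 37 with weights, only the groups compared and the shared spread without that array. Leaving out 1 array gave 1 to 7, 2 to 21 and 7 to 18 calls in these 3 comparisons. In brain it gave 22 to 33 for ACTH and 26 to 31 for ACTH gratified against control, 4 to 18 for ACTH against furosemide, 0 to 1 for furosemide and 0 to 3 for furosemide gratified against control. Between tissues in controls the 2 calls became 0 with quantile normalization or the number series as a factor, 4 with weights and 1 with only the groups compared, and 0 to 2 without 1 array. In ACTH mice that comparison gave 0 calls, and 1 with weights and 0 to 1 without 1 array, and in ACTH gratified mice 0, and 1 with weights and 0 to 2 without 1 array. Furosemide gratified against furosemide in hypothalamus gave 1 call with the number series as a factor, which could not be fitted for ACTH against control or furosemide. The split of 2 rises and 4 falls with ACTH in hypothalamus was 0 and 4 with array medians set to 0 and 0 and 1 with quantile normalization. For ACTH gratified it was 1 and 8, and 1 and 2, in place of 1 and 5. In ACTH brains quantile normalization moved the members' median difference to -0.03, from -0.13. The cause of these changes was not tested. Whether replicate numbers pair arrays is not known, and the main fits treated all arrays as unpaired. Same-numbered arrays deviated with correlations of -0.28 to 0.27, which cannot show whether they share a mouse. With the replicate block, ACTH against control gave 3 calls in hypothalamus and 27 in brain, ACTH gratified gave 4 and 26, ACTH against furosemide gave 18 and 14, and the tissue comparison in ACTH gratified mice gave 1. The number of arrays limits the precision of every value.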
